A study of Mus musculus with 10 samples.

Results

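Mast cells are tissue-resident immune cells of the dermis that store histamine and proteases in granules and release them when IgE on their surface is cross-linked. The genes described here are 8 transcripts by which mast cells are usually recognised. Cpa3 encodes carboxypeptidase A3, Mcpt4 and Cma1 encode the chymases mMCP-4 and mMCP-5, and Tpsb2 encodes the tryptase mMCP-6. Fcer1a and Ms4a2 encode the IgE-binding alpha chain and the signal-amplifying beta chain of the high-affinity IgE receptor. Hdc encodes histidine decarboxylase, the enzyme that makes histamine, and Gata2 encodes a transcription factor that mast cell development needs. They were taken by symbol from the 23282 entries of each deposited table. All 8 were found, and 7 of them passed a filter on low values that 11536 of the 23282 entries passed. The exception was Fcer1a.

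The study compared whole skin of STAT3cKO mice, whose keratinocytes had STAT3 ablated, with whole skin of wild-type (WT) mice. There were 5 libraries of each genotype, all from the C57BL/6 background at 5 months of age. The sources used here give neither the driver of the ablation nor sex, litter or hair growth phase. They also do not say that libraries came from different mice, and p-values therefore measure the spread between libraries. By the labels the ablation was in keratinocytes and not in mast cells. Stat3 itself had values of 10.25, 9.98, 10.81, 9.49 and 10.13 in STAT3cKO 1 to 5, against 9.70, 9.08, 10.27, 9.27 and 10.29 in WT 1 to 5. The groups overlapped, and the change was 0.41 (limma adjusted p = 0.700), so the targeted transcript was not detectably lower in whole skin. The sources used here do not give the deleted part of the gene, and reads of the 3′ end may lie outside it, so these values do not check the genotype labels. In whole skin, fewer mast cells and less RNA per mast cell cannot be told apart.

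Libraries were read at the 3′ end of transcripts. Values are the deposited ones, on a log2 scale with a pseudocount of 1, and changes are STAT3cKO minus WT on that scale. The worth of a single read was estimated from the low values of each library, which gave 7420000 to 18500000 reads in STAT3cKO and 7100000 to 16800000 in WT libraries. A gene below 0.5 of a read is called without a read. The share without a read was then taken among genes with a median of 7 to 8 over the remaining 9 libraries. It was 30.1% in STAT3cKO 2, 11.7% in WT 3, 10.2% in STAT3cKO 3 and 8.77% in WT 5. The lowest was 0.265%, in WT 4. STAT3cKO 2 also differed from the other 9 libraries in sex-linked transcripts, with Ddx3y at 10.62 and Xist at 0.06. Genes of the growing hair follicle had a mean value of 9.76, 13.08 and 9.41 in STAT3cKO 1, 3 and 5 and of 13.52 in WT 4, against 0.59 and 0.97 in STAT3cKO 2 and 4 and 1.24 to 3.99 in the other WT libraries.

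GATA factors recognise the core sequence GATA. The members' promoters are shown because one member is itself a GATA factor and the others are mast cell genes whose levels were followed here. RefSeq promoter windows of 250 bases before to 50 bases after the start site (GRCm38, the build also called mm10) were available for 7 of the 8 members, all but Tpsb2. The letters AGATAA and TGATAA were searched on both strands, so that TTATCT and TTATCA also count. They occurred in 4 of the 7 members, Cpa3, Mcpt4, Ms4a2 and Fcer1a, and in 18.6% of all 32851 windows of this length. The member count is of genes and the share is of windows, and Gata2 had windows at different start sites. Capitals mark the matches.
Cpa3 promoter, chr3:20242132-20242431, minus strand: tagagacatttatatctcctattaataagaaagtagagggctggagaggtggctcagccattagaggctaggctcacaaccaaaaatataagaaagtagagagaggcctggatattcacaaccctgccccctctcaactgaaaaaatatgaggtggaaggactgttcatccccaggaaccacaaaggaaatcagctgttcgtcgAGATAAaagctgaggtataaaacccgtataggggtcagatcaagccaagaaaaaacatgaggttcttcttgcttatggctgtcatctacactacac
Mcpt4 promoter, chr14:56062261-56062560, minus strand: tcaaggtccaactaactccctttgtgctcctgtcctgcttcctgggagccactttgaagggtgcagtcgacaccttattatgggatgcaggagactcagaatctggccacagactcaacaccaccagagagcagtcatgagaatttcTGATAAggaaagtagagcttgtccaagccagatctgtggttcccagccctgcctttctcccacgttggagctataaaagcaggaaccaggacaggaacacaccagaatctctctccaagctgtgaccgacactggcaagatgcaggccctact
Ms4a2 promoter, chr19:11623670-11623969, minus strand: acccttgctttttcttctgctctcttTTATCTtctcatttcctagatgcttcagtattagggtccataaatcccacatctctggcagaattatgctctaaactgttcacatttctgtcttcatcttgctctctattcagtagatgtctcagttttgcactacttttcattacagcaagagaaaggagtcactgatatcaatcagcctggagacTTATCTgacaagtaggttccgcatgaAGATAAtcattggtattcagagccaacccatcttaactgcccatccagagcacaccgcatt
Fcer1a promoter, chr1:173227180-173227479, minus strand: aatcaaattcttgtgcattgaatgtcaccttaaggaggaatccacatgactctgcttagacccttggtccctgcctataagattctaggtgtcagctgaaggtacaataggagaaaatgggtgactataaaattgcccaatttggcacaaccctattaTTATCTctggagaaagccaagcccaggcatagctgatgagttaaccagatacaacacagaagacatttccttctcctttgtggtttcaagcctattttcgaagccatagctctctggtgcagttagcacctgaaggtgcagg
The match began at −46 from the start site in Cpa3, at −103 in Mcpt4 and at −92 in Fcer1a. Ms4a2 had 3 matches, at −224, −37 and −11. The windows of Cma1, Hdc and Gata2 held none of these letters. Other forms of the core were not counted, such as TGATAG in the Hdc window and CTATCT in the Cma1 window. A match describes the sequence and is not a shown binding site.

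The proteases Cpa3, Mcpt4, Cma1 and Tpsb2 had reads in 10 of 10 libraries, so mast cell transcripts were present in the skin of both genotypes. The 4 other members lacked a read in some libraries. By limma over all tested genes 0 of the 7 tested members rose and 0 fell at an adjusted p under 0.05, against 0.988% of all tested genes (0.529% higher and 0.459% lower). At an unadjusted limma p under 0.05 there was 1 member, Cpa3, where 10.9% of all tested genes passed. Of the 7 tested members 4 had a positive and 3 a negative change, with a median of 0.30, beside a median of −0.16 over all tested genes. The most negative changes were those of Ms4a2 and Cpa3, and the most positive those of Fcer1a and Hdc. The groups overlapped for each of the 8 members, where 3.42% of all tested genes had groups that did not.

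**Figure D1:**
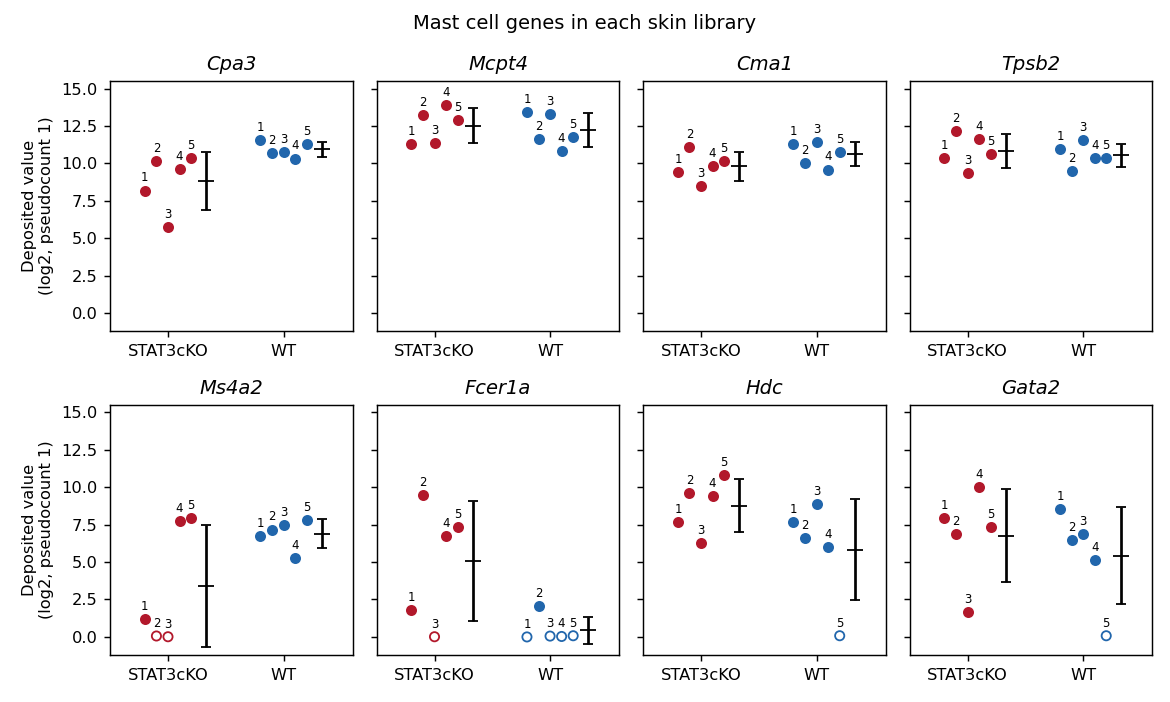
Deposited log2 value of each gene (vertical axis) in the 5 STAT3cKO and 5 WT libraries, with the replicate number above each point. Open points are libraries without a read, and the bar beside each group is its mean and SD (n = 5). Mcpt4 and Tpsb2 overlap between the genotypes, Cpa3 is lowest in STAT3cKO 3 (5.72), and Fcer1a has 3 STAT3cKO libraries above every WT library.

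Among the proteases, Cpa3 had the most negative change and the lowest p. Carboxypeptidase A3 is a granule enzyme that removes residues from the end of peptides. Cpa3 (ENSMUSG00000001865.2, chromosome 3, 20215620 to 20242181, minus strand of mm10) had values of 8.19, 10.18, 5.72, 9.60 and 10.38 in STAT3cKO 1 to 5, against 11.57, 10.68, 10.78, 10.33 and 11.28 in WT 1 to 5. Of the 5 STAT3cKO libraries 4 lay below all WT libraries, and STAT3cKO 5 overlapped WT 4. The means were 8.82 ± 1.93 in STAT3cKO and 10.93 ± 0.50 in WT (SD, n = 5 each), and the change was −2.12 (SE 0.77, 95% interval −3.79 to −0.44). This did not pass over all genes (limma adjusted p = 0.317). The exact 2-sided permutation test over all ways to assign 5 of the 10 libraries gave an unadjusted p of 0.0159. By that test 12.3% of all tested genes were under 0.05, 6.58% lower and 5.7% higher. The estimated reads were 48 to 2360 per STAT3cKO library and 1079 to 4597 per WT library. The 48 were in STAT3cKO 3, where 10.2% of genes with a median of 7 to 8 elsewhere had no read. Each other library had at least 236 reads. Without STAT3cKO 3 the change was −1.34 (limma adjusted p = 0.228). It was −1.14 in the 4 deeper libraries and −2.77 in the 6 shallower ones.

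Marker genes of adipocytes and of the growing hair follicle were set beside Cpa3. The summed linear level of the 10 adipocyte genes was 49200 to 273000 in STAT3cKO and 132000 to 724000 in WT libraries, and all 10 had negative changes with a median of −2.35, beside −0.16 over all tested genes. By limma 0 of the 10 rose and 1 fell, Car3, with a change of −3.06 (adjusted p = 0.0209), where 0.459% of all tested genes fell. Of 15 hair follicle genes 8 were tested, 7 with positive changes and 1 with a negative one, with a median of 2.02, and 0 rose and 0 fell. STAT3cKO 3 had the lowest adipocyte mean (9.13) and a high hair follicle mean (13.08) as well as the lowest Cpa3. WT 4 had the highest hair follicle mean (13.52), the lowest adipocyte mean of the WT libraries (11.97) and the lowest Cpa3 of the WT libraries. STAT3cKO 2 and 4, with hair follicle means of 0.59 and 0.97, had Cpa3 values of 10.18 and 9.60, which were below all WT libraries. STAT3cKO 1 and 5, with hair follicle means of 9.76 and 9.41, had Cpa3 values of 8.19 and 10.38, the latter the highest in STAT3cKO. The part of tissue makeup in the Cpa3 difference was not tested.

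The change of Mcpt4 and that of Tpsb2 lay close to 0. Mcpt4 (chromosome 14, 56059629 to 56062313, minus strand), a chymase of connective tissue mast cells that cuts after aromatic residues, had values of 11.29, 13.21, 11.35, 13.90 and 12.88 in STAT3cKO 1 to 5, against 13.45, 11.62, 13.32, 10.85 and 11.78 in WT 1 to 5. High and low libraries stood in both groups. The change was 0.32 (limma adjusted p = 0.875, SE 0.64, 95% interval −1.10 to 1.74). Tpsb2 (chromosome 17, 25366305 to 25369098, plus strand), a tryptase that forms heparin-bound tetramers, had values of 10.39, 12.17, 9.35, 11.63 and 10.62 in STAT3cKO, against 10.94, 9.48, 11.55, 10.33 and 10.39 in WT. Its change was 0.30 (limma adjusted p = 0.845, SE 0.50, 95% interval −0.76 to 1.35). For both genes the upper bound allowed a rise of more than 1 on the log2 scale in STAT3cKO skin. The lower bound allowed a fall of more than 1 for Mcpt4 and of 0.76 for Tpsb2.

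Cma1 (chromosome 14, 55941451 to 55944675, minus strand) encodes a mouse alpha-chymase with elastase-like cutting that is stored together with carboxypeptidase A3. Its values were 9.44, 11.08, 8.49, 9.84 and 10.15 in STAT3cKO 1 to 5, against 11.28, 10.03, 11.41, 9.59 and 10.74 in WT 1 to 5. The lowest library was again STAT3cKO 3, and the groups overlapped. The change was −0.81 (limma adjusted p = 0.544, SE 0.46, 95% interval −1.78 to 0.16). Cma1 and Mcpt4 belong to a cluster of related protease genes. Of the 451 stretches of 50 bases in the last 500 bases of the transcript, 56 of Cma1 also occur in the predicted gene Gm48934, and 58 of Mcpt4 in Cma2 or Mcpt9, while Cpa3, Tpsb2, Ms4a2, Fcer1a, Hdc and Gata2 shared 0. Cma2 was at most 5.42 and Mcpt9 at most 1.78 in any library. How the authors counted reads that match more than 1 place is unknown from the sources used here.

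**Figure D2:**
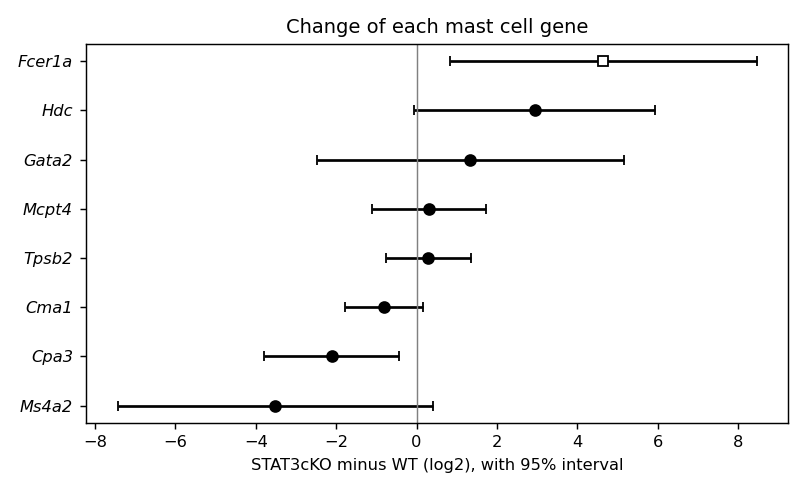
STAT3cKO minus WT (horizontal axis, log2) of each member with its 95% interval from limma (n = 5 libraries each). Filled circles passed the filter on low values, and the open square, Fcer1a at 4.64, comes from the fit without that filter. The intervals of Cpa3 and Fcer1a lie to one side of 0, and 0 of the 7 tested members passed after adjustment over all genes by limma.

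The chains of the IgE receptor had changes of opposite sign, and neither passed. The receptor is the trigger of the mast cell: the alpha chain binds IgE, and in mice it needs the beta and gamma chains to reach the cell surface. Fcer1a (chromosome 1, 173221284 to 173227214, minus strand), the alpha chain, had values of 1.80, 9.49, 0.01, 6.76 and 7.36 in STAT3cKO 1 to 5, against 0.00, 2.04, 0.06, 0.03 and 0.08 in WT 1 to 5. In estimated reads these were 2, 507, 0, 147 and 289 in STAT3cKO and 0, 4, 0, 0 and 0 in WT. Of the 5 STAT3cKO libraries 3 lay above all WT libraries, 1 had about as few reads as WT 2, and 1 had no read. Because 3 libraries reached the value of 5 and the filter asked for 5 libraries, Fcer1a did not enter the fit of the tested genes. In the fit without a filter its change was 4.64 (limma adjusted p = 0.425 with SE 1.79, 95% interval 0.83 to 8.46 over 17286 genes, of which 0.555% were called). The exact 2-sided permutation test gave an unadjusted p of 0.0794, and 9.59% of those genes were under 0.05 by that test, 3.97% in the higher direction. A change so fitted depends on the pseudocount, since 4 of 5 WT libraries had no read, and it was 2.38 with a pseudocount of 16.

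The libraries with Fcer1a reads differed in depth and in missing genes. The highest value was in STAT3cKO 2, the library with the most missing genes, and without it the change was 3.54 (limma adjusted p = 0.503 in the unfiltered fit). In the 4 deeper libraries the values were 6.76 and 7.36 in STAT3cKO 4 and 5, against 0.00 and 2.04 in WT 1 and 2, a change of 6.04 (limma adjusted p = 0.256). In the 6 shallower ones the change was 3.71 (limma adjusted p = 0.791). Basophils also carry this receptor in mice. Of their 6 marker genes Ms4a3 and Itga2 are listed at 0 in every library. Broadly expressed genes such as Tgfb1 are listed so too, and this says nothing of their absence. Mcpt8, a basophil protease, had a read in 1 library, STAT3cKO 5, at 4.59. In that library Cd200r3 was 5.9 and Il3ra 4.3, against at most 4.3 and 5.5 in WT libraries. The summed linear level of the 6 genes was 1.59 to 133 in STAT3cKO and 0.208 to 44.2 in WT libraries. STAT3cKO 2, with the most Fcer1a, had Mcpt8 at 0.05 and Prss34, another basophil protease, at 0.06. Prss34 was highest in STAT3cKO 3 (7.06), which had no Fcer1a read, and in STAT3cKO 4 (6.53), which had 147. The part of basophils in the Fcer1a difference was not tested.

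Ms4a2 (chromosome 19, 11615523 to 11623719, minus strand), the beta chain, had values of 1.17, 0.06, 0.01, 7.72 and 7.92 in STAT3cKO 1 to 5, against 6.71, 7.17, 7.47, 5.29 and 7.82 in WT 1 to 5. The STAT3cKO libraries fell into 2 with values within or above the WT span and 3 with at most 1 read. The change was −3.52 (limma adjusted p = 0.521, SE 1.87, 95% interval −7.44 to 0.41). The 2 STAT3cKO libraries with more than 1 read were the 2 deeper ones. In the 4 deeper libraries the change had the other sign, 0.88 (limma adjusted p = 0.692). In the 6 shallower libraries it was −6.44 (limma adjusted p = 0.796). All 3 shallower WT libraries nevertheless had 32 to 148 reads of the gene. Depth and the level of Ms4a2 within STAT3cKO therefore moved together, and the part of depth was not tested. STAT3cKO 2 had 507 reads of the alpha chain and 0 of the beta chain, and the library was the one in which many genes were missing.

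Fcer1g encodes the gamma chain, which mast cells share with macrophages and other myeloid cells. It had values of 8.66, 10.28, 8.91, 8.48 and 10.64 in STAT3cKO 1 to 5, against 10.99, 10.07, 10.82, 9.0 and 10.24 in WT 1 to 5. The groups overlapped, with a change of −0.83 (limma adjusted p = 0.549). Of 10 macrophage and monocyte genes 9 were tested, all 9 with negative changes and a median of −0.62, and 0 rose and 0 fell by limma. Their summed linear level was 4000 to 19300 in STAT3cKO and 9660 to 24100 in WT libraries, and the part of these cells in the Fcer1g difference was not tested.

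Hdc makes histamine from histidine and is also expressed by basophils and some neutrophils. Hdc (chromosome 2, 126593667 to 126619299, minus strand) had values of 7.65, 9.63, 6.30, 9.44 and 10.81 in STAT3cKO 1 to 5, against 7.65, 6.57, 8.86, 5.98 and 0.08 in WT 1 to 5. Of the 5 STAT3cKO libraries 3 lay above all WT libraries, and WT 5 had no read. The means were 8.77 ± 1.78 in STAT3cKO and 5.83 ± 3.40 in WT (SD, n = 5 each), a change of 2.94 (limma adjusted p = 0.469, SE 1.43, 95% interval −0.06 to 5.94). The exact 2-sided permutation test gave an unadjusted p of 0.0952. Without WT 5, the library without a read, the change was 1.5 (limma adjusted p = 0.629). It was 3.01 in the 4 deeper libraries (limma adjusted p = 0.0578), where the values were 9.44 and 10.81 in STAT3cKO and 7.65 and 6.57 in WT, and 2.89 in the 6 shallower ones (limma adjusted p = 0.826). Of 6 neutrophil genes 2 were tested, S100a8 and S100a9, both with positive changes, and 0 rose and 0 fell by limma. Below the filter, Csf3r had a mean value of 0.75 in STAT3cKO and 2.09 in WT, and Retnlg of 3.62 and 4.79. Mmp8 went the other way, at 2.67 in STAT3cKO and 0.91 in WT. The neutrophil list had a mean value of 9.65 in STAT3cKO 5, the library with the most Hdc. In the other STAT3cKO libraries it was 2.91 to 5.03, and in WT 3.73 to 5.03. Without STAT3cKO 5 the change of Hdc was 2.43 (limma adjusted p = 0.605). The part of neutrophils in the Hdc difference was not tested.

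Gata2 (chromosome 6, 88193891 to 88207032, plus strand) is expressed by endothelial cells as well as mast cells. Its values were 7.94, 6.88, 1.67, 10.02 and 7.32 in STAT3cKO 1 to 5, against 8.55, 6.46, 6.88, 5.16 and 0.08 in WT 1 to 5. Each group held 1 library near or without a read, STAT3cKO 3 with about 2 reads and WT 5 with none. The change was 1.34 (limma adjusted p = 0.809, SE 1.81, 95% interval −2.47 to 5.15). It was between 0.00 without WT 5 and 2.61 without STAT3cKO 3, so single libraries decided its size. Of 10 blood endothelial genes 0 rose and 0 fell by limma, with 6 positive and 4 negative changes and a median of 0.28. Their summed linear level was 1970 to 5530 in STAT3cKO and 1420 to 3630 in WT libraries. Of 5 tested lymphatic endothelial genes 0 rose and 0 fell, with 4 positive and 1 negative change and a median of 1.27. The part of endothelial cells in the Gata2 difference was not tested.

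Members were also compared with each other inside each library. These differences were chosen after their values were seen and carry no test. Hdc minus Cpa3 was −0.54, −0.54, 0.58, −0.17 and 0.42 in STAT3cKO 1 to 5, against −3.92, −4.11, −1.93, −4.35 and −11.20 in WT 1 to 5, the last with no Hdc read. The groups did not overlap, with each of the 5 STAT3cKO libraries the higher.

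Mcpt4 minus Cpa3 was 3.10, 3.03, 5.63, 4.30 and 2.50 in STAT3cKO, against 1.88, 0.94, 2.54, 0.52 and 0.50 in WT, so that 4 of 5 STAT3cKO libraries lay above all WT libraries. Tpsb2 minus Cpa3 was 2.20, 2.0, 3.62, 2.03 and 0.24 in STAT3cKO, against −0.63, −1.21, 0.76, 0.01 and −0.89 in WT, again with 4 of 5 above all WT libraries. Cma1 minus Cpa3 was 1.25, 0.90, 2.76, 0.23 and −0.23 in STAT3cKO, against −0.29, −0.65, 0.63, −0.74 and −0.54 in WT, with more overlap. Of all 28 pairs of members 5 had groups that did not overlap, and each of the 5 contained Hdc or Fcer1a. Fcer1a had no read in 4 of 5 WT libraries, so its WT differences there are close to minus the other gene's value. Fcer1a minus Ms4a2 was 0 in STAT3cKO 3, where neither gene had a read. No share over all genes is given for pairs with Fcer1a, which was not among the tested genes. Among the 21 pairs of the 7 tested members there were 3, all with Hdc, where 3.0% of all pairs of tested genes had groups that did not overlap. Pairs share genes and libraries and are not independent of each other.

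**Figure D3:**
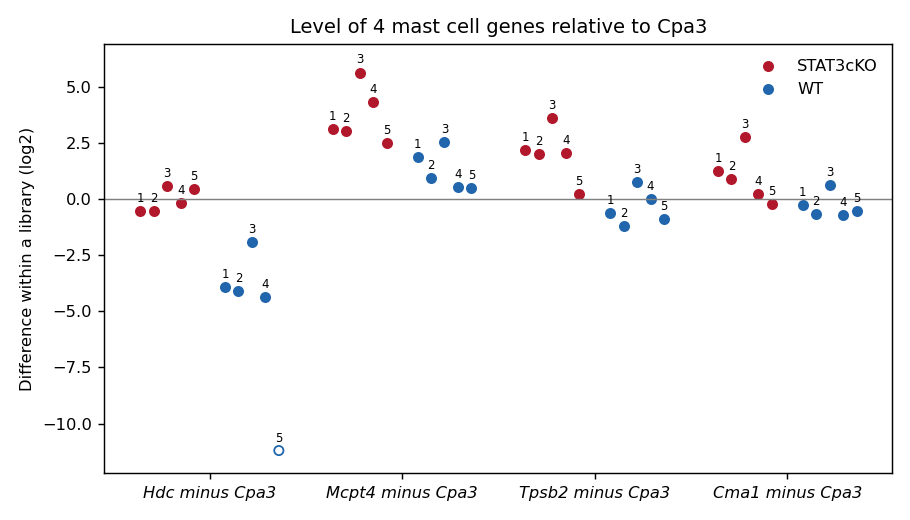
Difference between a gene and Cpa3 within each library (vertical axis, log2), for the 5 STAT3cKO and 5 WT libraries with the replicate number above each point. The open point is WT 5, which had no Hdc read. The STAT3cKO libraries sit between −0.54 and 0.58 for Hdc minus Cpa3 and all lie above the WT libraries, which reach −1.93.

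The proteases were also compared with the rest of the transcriptome by their pattern over the 10 libraries. The mean of Cpa3, Mcpt4, Cma1 and Tpsb2 was most like Efemp1, which encodes the matrix protein fibulin-3 (Pearson's r of 0.965 over 10 libraries). Ccdc78 (0.948), Scand1 (0.936), Ndn (0.929) and Casc1 (0.928) followed. With the group means removed the values were 0.962, 0.951, 0.939, 0.944 and 0.923 in the same order. These are the highest of 11536 tested genes less the members, the libraries differ in depth and missing genes, and the values describe likeness only.

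Other genes of mast cell biology were followed in 8 lists of 71 genes, all present in the tables, of which 45 passed the filter. By limma 0 of the 45 rose and 0 fell, with 20 positive and 25 negative changes and a median of −0.16, beside −0.16 over all tested genes. Of the 8 other proteases of mast cells and basophils 0 passed the filter. Tpsab1, the tryptase mMCP-7, which the C57BL/6 strain is known to lack as a functional protein, had values of 5.68, 0.06, 0.01, 0.00 and 6.33 in STAT3cKO, against 3.90, 2.29, 0.06, 0.03 and 0.08 in WT.

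Of 7 tested receptors other than the IgE-binding chains 3 had positive and 4 negative changes, with a median of −0.83. Kit, the receptor for stem cell factor on which mast cells depend, and which melanocytes also carry, had values of 5.29, 7.57, 0.01, 6.09 and 7.19 in STAT3cKO, against 0.70, 3.14, 8.68, 6.46 and 0.08 in WT. Adora3, an adenosine receptor, had no read in 3 STAT3cKO libraries, and its change was −3.50 (limma adjusted p = 0.513). C3ar1, the receptor for complement C3a, had one of 2.36 (limma adjusted p = 0.547). Mrgprb1 had one of −0.96 (limma adjusted p = 0.849), and Mrgprb2, the receptor through which peptides activate mouse mast cells without IgE, was below the filter.

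Of 4 tested genes of histamine transport, breakdown and receptors 2 had positive and 2 negative changes. Hnmt, the methyltransferase that inactivates histamine, had values of 7.18, 10.05, 6.54, 8.02 and 8.18 in STAT3cKO, against 9.84, 10.24, 11.34, 8.33 and 10.21 in WT. The change was −2.0 (SE 0.64, limma adjusted p = 0.173). Slc22a3, a transporter that takes up histamine among other cations, had values of 6.29, 4.64, 7.20, 0.00 and 5.66 in STAT3cKO, against 9.26, 8.20, 10.06, 7.30 and 8.39 in WT. All 5 STAT3cKO libraries lay below all WT libraries, where 3.42% of all tested genes had groups that did not overlap. The difference was −3.89 (limma adjusted p = 0.262, SE 1.39). Both genes are expressed by many cells of skin, and the macrophage genes above had negative changes too; their part in these differences was not tested. Aoc1, the diamine oxidase, and the receptors Hrh1, Hrh2 and Hrh4 were below the filter.

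Of 6 tested eicosanoid enzymes 2 had positive and 4 negative changes. Ltc4s, the synthase of leukotriene C4 in mast cells and macrophages, had values of 0.04, 0.06, 0.01, 6.94 and 5.13 in STAT3cKO, against 8.75, 8.30, 7.93, 6.06 and 8.40 in WT. The change was −5.45 (SE 1.73, limma adjusted p = 0.171). The STAT3cKO libraries without a read of Ltc4s were the 3 shallower ones. The 3 shallower WT libraries, WT 3 to 5, nevertheless had values of 7.93, 6.06 and 8.40. The part of depth was not tested. The macrophage markers given beside Fcer1g had negative changes too, and their part in the Ltc4s difference was not tested. Hpgds, which makes prostaglandin D2, had a change of −2.37 (limma adjusted p = 0.550), with no read in STAT3cKO 2.

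In the signalling list downstream of the IgE receptor 3 of 8 tested genes had positive and 5 negative changes, with a median of −0.17. The change of Fyn, a Src family kinase, was −1.90 (limma adjusted p = 0.522). Plcg2, a phospholipase, stood at 1.40 (limma adjusted p = 0.756). Of 10 granule genes 4 had positive and 6 negative changes, with a median of −0.08. The change of Cd63, a granule membrane tetraspanin, was −0.69 (limma adjusted p = 0.446), and Stxbp2, a partner of syntaxins in granule release, had one of 0.87 (limma adjusted p = 0.540).

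Of 7 tested transcription factors 4 had positive and 3 negative changes, with a median of 0.17. The change of Stat5b, through which stem cell factor and interleukin 3 act on mast cells, was −1.02 (limma adjusted p = 0.377). That of Cebpa was −1.07 (limma adjusted p = 0.449). Mitf, the factor that mast cells share with melanocytes, had one of 0.17 (limma adjusted p = 0.940). Of 3 tested growth factors and alarmins, Kitl, which encodes stem cell factor, had a change of 0.31 at a limma adjusted p of 0.945, and the change of Cxcl12 was −0.62 (limma adjusted p = 0.738). Il33, an alarmin that keratinocytes can release, had one of 0.14 (limma adjusted p = 0.962). Gata1, Il3, Il9, Il13, Tgfb1, Ptgs2, Hrh4 and Mcpt2 are listed at 0 in every library, and since broadly expressed genes such as Tgfb1 are among them, this says nothing of their absence.

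**Figure D4:**
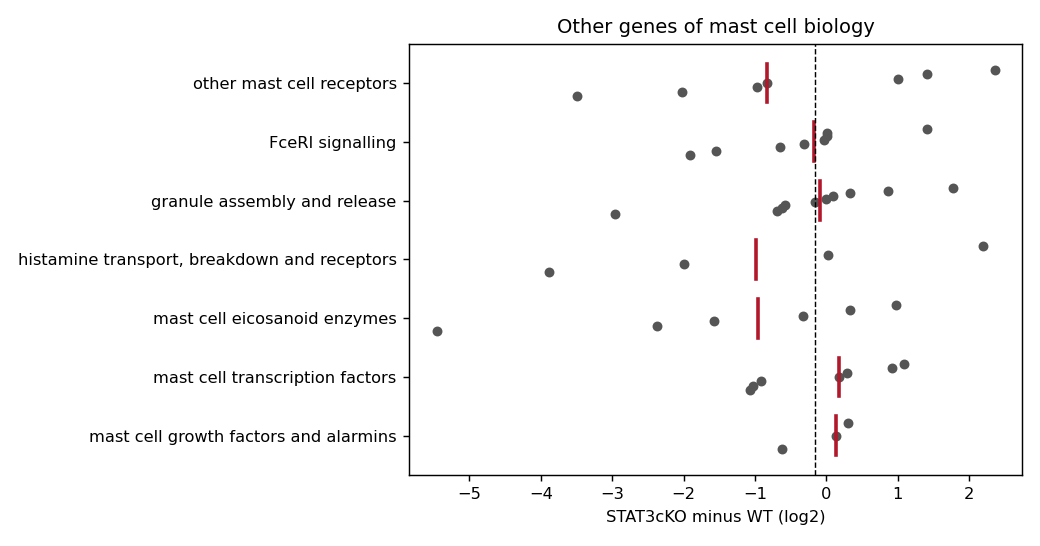
STAT3cKO minus WT (horizontal axis, log2) of the 45 tested genes in 7 lists of mast cell biology, 1 point per gene. Red bars are list medians and the dashed line is the median of all 11536 tested genes (−0.16). By limma 0 of the 45 passed after adjustment over all genes.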

How the data were processed

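Total RNA of whole skin was made into 3′ end libraries with the Lexogen QuantSeq kit, per the labels' protocols. The authors processed reads with Bowtie2 and bedtools on mm10, per the submitters' processing notes. The sources used here give no version, annotation, strand use or scaling. The deposited values behave as log2 of scaled reads per gene plus 1. On the linear scale the libraries summed to between 9690000 and 11400000. In each library 88.9 to 100% of the values up to 20 reads lay within 0.15 of a whole number of reads.

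Genes with a value of at least 5 in at least 5 libraries were tested with limma 3.58.1 under R 4.3.3, with genotype as the single term, a mean trend and robust estimation. P-values were adjusted by Benjamini and Hochberg over all tested genes, called under 0.05. Exact 2-sided permutation tests covered single genes, with a smallest possible p of 0.00794. The fit was tested on simulated data.

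The genes and lists were chosen with earlier results of these data known. All 8 members are named, and from each list the 2 tested genes with the lowest p. Fcer1g, Tpsab1, Kit, Mrgprb1, Mitf, Il33, Car3 and Dpt were added after their values were seen. So were S100a8, S100a9, Csf3r, Retnlg, Mmp8, Cd200r3 and Il3ra. The lymphatic list was set beside Gata2 after its values were seen. Of the marker lists not set beside a result, limma called 1 of 10 tested fibroblast genes, Dpt, which was lower. It called 0 of 3 T and NK cell genes (3 negative), 10 muscle genes (9 negative) and 8 basal keratinocyte genes (0 negative). Alternatives are given at the end. Positions are from GENCODE M21 and figures from matplotlib 3.10.9.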

Additional observations from a re-analysis of the deposited data

Results flagged for a closer look

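Each member's values were searched within each genotype for a library that stood apart from its 4 neighbours, 16 groups in all, of which chance flags about 1 in 20. Fcer1a in WT 2 stood apart, at 2.04 (about 4 reads) against 0.08 or less in the other WT libraries, which had no read. The rate of 1 in 20 need not hold for such a group, where a few reads in 1 library are enough for a flag.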

How the results depend on the processing

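With no filter, a mean of at least 7, a pseudocount of 16, libraries scaled to the same sum or shifted to the same median, no trend, the 4 deeper or 6 shallower libraries, without STAT3cKO 2 and WT 3 together, and without each library in turn, 0 members rose and 0 fell by limma, the same as in the reported fit. Over all genes 114 were called in the reported fit and 16 to 207 under these alternatives, and scaling to the same sum set the median change of all tested genes at −0.05, against −0.16. With the replicate block the counts were also 0 and 0, and 66 of all genes were called. Deviations of same-numbered libraries correlated at −0.15 to 0.02 across genes, so the values gave no sign that the shared numbers are pairs. Libraries also differed in missing genes and in hair follicle genes, so these correlations cannot exclude pairs. The lists had 0 calls with no filter and with either rescaling. Changes of Cpa3, Cma1, Hdc, Gata2 and Fcer1a kept their sign in each alternative run. Cpa3 ranged from −2.77 to −1.14 (adjusted p 0.207 to 0.762), Hdc from 1.5 to 3.69 (0.0578 to 0.826) and Fcer1a from 2.38 to 6.04 (0.247 to 0.791). Signs turned for Mcpt4 (−0.034 in the shallower libraries, and −0.022 without STAT3cKO 4, −0.017 without WT 4 and up to 0.63 over the fits that left out 1 library), Tpsb2 (−0.12 in the shallower libraries, and −0.040 without STAT3cKO 2 and up to 0.67 over those fits) and Ms4a2 (0.88 in the deeper libraries); the cause was not tested. Ms4a2 and Gata2 did not reach the mean of 7 and Fcer1a was fitted without a filter. Ms4a2, Fcer1a, Hdc and Gata2 had libraries without a read, and the part of depth in this was not tested.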
